A study of Mus musculus with 8 samples.

Results

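The genes described here are the glucocorticoid receptor Nr3c1, the enzyme Hsd11b1 that makes its ligand inside cells, and 8 genes that the receptor is known to activate directly: Fkbp5, Tsc22d3, Zbtb16, Sgk1, Klf9, Dusp1, Ddit4 and Errfi1. They were chosen by gene symbol, and all 10 were found among the 56953 genes of the count table. Of these 10 genes, 9 were among the 9876 genes with enough counts to be tested, and Errfi1 was not. RNA was sequenced from whole brown adipose tissue (BAT) of 4 CTR mice and 4 CAC mice, with 1 library per mouse. All were wild-type C57BL/6J mice, injected at 8 to 10 weeks of age and housed at 21 °C in a light and dark cycle. CAC mice, the model of cancer-associated cachexia, received 3000000 Lewis Lung Carcinoma (LLC) cells under the skin of the flank and were followed for 21 days, whereas CTR mice received PBS only. The labels allow both sexes. Xist, which is transcribed from the inactive X chromosome of females, had at most 1 count, and the Y-linked gene Ddx3y had 61.6 to 72.1 CPM in every library, 2 genes named here as a check of sex only. The hour at which BAT was taken is not given in the sources used here.

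Glucocorticoids, corticosterone in the mouse, are adrenal steroids that cross the cell membrane and bind a receptor held by chaperones in the cytoplasm. The bound receptor moves to the nucleus and binds glucocorticoid response elements, which raises the transcription of some genes and lowers that of others. In adipose tissue the hormone is known for its effects on fat storage, lipolysis, inflammation and thermogenesis, and several of its targets are also used as readouts of hormone exposure.

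None of the 9 tested genes passed an adjusted p of 0.05 in edgeR's quasi-likelihood test, in which p was adjusted by the Benjamini-Hochberg method over all tested genes and 0.932% of them passed. At an unadjusted p of 0.05, 3 of the 9 passed, Fkbp5, Tsc22d3 and Hsd11b1, all higher in CAC, against 12.9% of all tested genes in either direction and 7.01% in the higher direction. With DESeq2, 0 passed after adjustment and 3 before it, which were Fkbp5, Tsc22d3 and Dusp1, against 116 of all tested genes after adjustment and 9.16% of them before it. The log2 fold change of CAC over CTR was above 0 in 8 of the 9 genes and below 0 in Dusp1, with a median of 0.20 (0.14 without CAC replicate 1 to 0.31 without CAC replicate 2), beside 50% of all tested genes above 0 and a median of -5.01e-06 over them. In 1 of the 9, Fkbp5, every CAC library lay above every CTR library, and in 0 every CAC library lay below. Fkbp5 had enough counts to be tested through the CAC libraries alone, so its place among the separated genes follows in part from that. Of all tested genes, 7.05% had groups without overlap, 3.65% with CAC higher and 3.4% with CAC lower. Values are given as CPM, the usual scaling of counts by library size, here with TMM factors. Total counts were 1822901 to 4827709 per library. A count of 0 allows a true value of up to 3 counts, or 0.655 to 1.61 CPM, and such limits cover counting error only. In whole tissue, fewer cells of a type and less RNA per cell cannot be told apart.

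**Figure D1:**
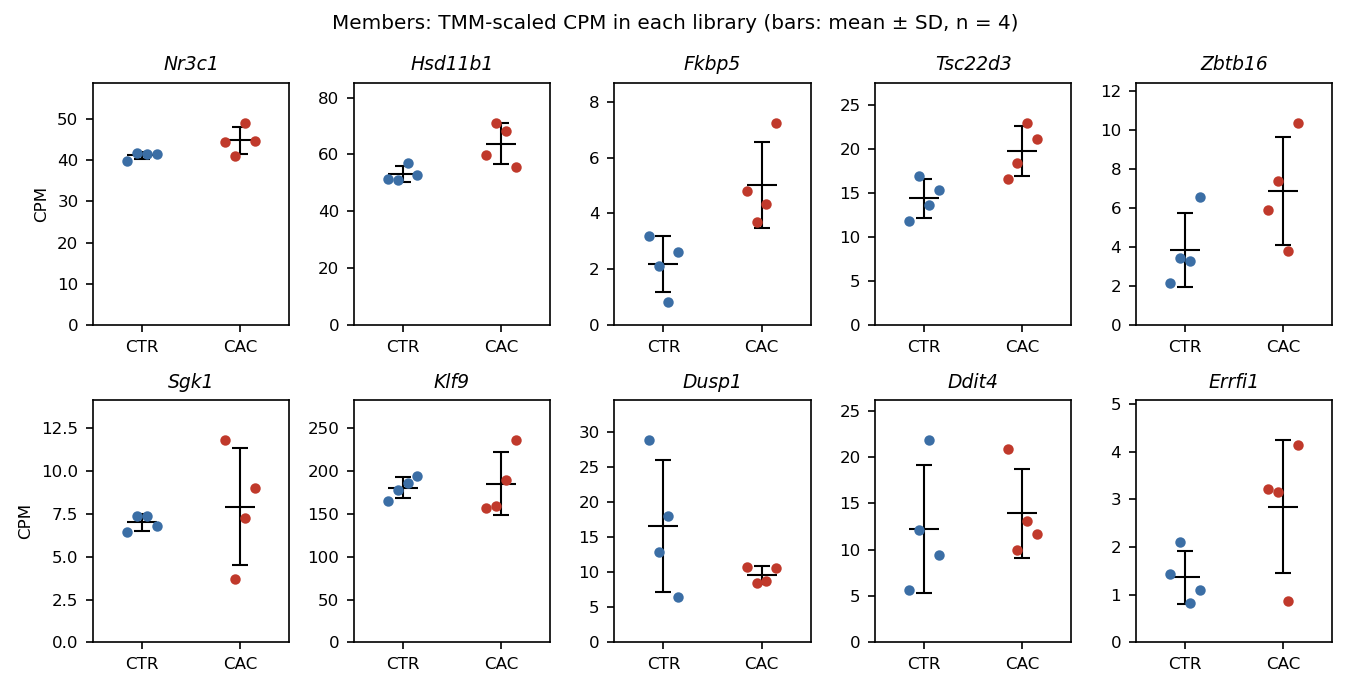
Expression in CPM (vertical axes, linear and starting at 0) of the 10 genes in each CTR (blue) and CAC (red) library; bars are mean ± SD, n = 4. The groups separate in Fkbp5, where CAC libraries lie between 3.69 and 7.25 CPM and CTR libraries between 0.822 and 3.21 CPM, and overlap in the other 9 genes.

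**Figure D2:**
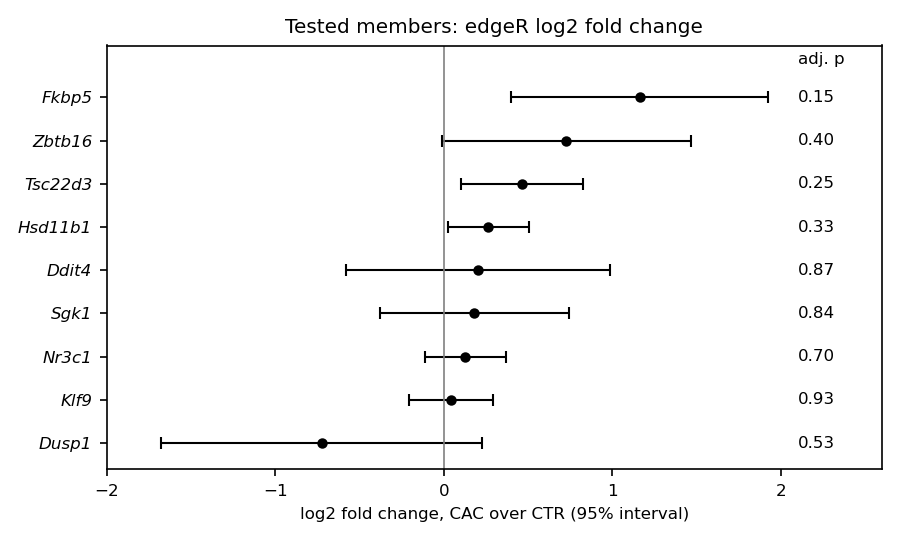
Log2 fold change of CAC over CTR with its 95% interval for the 9 tested genes, with edgeR's adjusted p at the right. The intervals of Fkbp5, Tsc22d3 and Hsd11b1 lie above 0, the other 6 include 0, and no adjusted p is under 0.05.

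Nr3c1 (ENSMUSG00000024431.16, on chromosome 18) encodes the receptor itself. Its expression in CTR replicates 1 to 4 was 39.9, 41.7, 41.5 and 41.5 CPM, and in CAC replicates 1 to 4 it was 44.4, 41.1, 49.0 and 44.5 CPM. The CTR libraries lay close together, and CAC replicate 2 fell among them while the other 3 CAC libraries lay above. The mean was 41.1 ± 0.828 CPM (SD, n = 4) in CTR and 44.8 ± 3.27 CPM in CAC. On the log2 scale they differed by 0.13 (standard error 0.12, 95% interval -0.11 to 0.37, edgeR adjusted p = 0.697). The interval spans a fold of 0.925 to 1.29. The log2 value was 0.07 without CAC replicate 3 and 0.03 after each library was thinned at random to the smallest total. The coefficient of variation was 2.01% in CTR and 7.30% in CAC, where counting alone gives 8.73% and 9.81%.

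Hsd11b1 (ENSMUSG00000016194.15, chromosome 1, 193221634 to 193264075 of GRCm38, minus strand) encodes the reductase that turns inactive 11-dehydrocorticosterone into corticosterone. Expression was 51.3, 51.2, 57.1 and 52.8 CPM in CTR replicates 1 to 4 and 60.0, 71.1, 68.2 and 55.6 CPM in CAC replicates 1 to 4. Of the CAC libraries, 3 lay above every CTR library and replicate 4 lay below the highest of them. The means were 53.1 ± 2.78 and 63.7 ± 7.18 CPM (SD, n = 4), and they differed by 0.26 on the log2 scale (standard error 0.12, 95% interval 0.02 to 0.50), with an unadjusted p of 0.0339 and an adjusted p of 0.332 in edgeR's test. On the opposite strand, Lamb3 overlaps this gene with 21 counts over all libraries, and on its own strand Gm38118, a transcript model of unassigned type, does so with 49.5. Whether the counting used the strand is not given in the sources used here.

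H6pd, which supplies the NADPH that HSD11B1 needs, was the only gene tested of 7 others for steroid supply and transport and the mineralocorticoid receptor. It had 33.8, 40.1, 32.1 and 29.7 CPM in CTR and 25.2, 31.6, 27.0 and 24.2 CPM in CAC (log2 fold change -0.34, 95% interval -0.64 to -0.04, edgeR adjusted p = 0.312). The groups overlapped through CTR replicate 4 and CAC replicate 2. Of the 6 genes with too few counts to be tested, Hsd11b2, whose product inactivates corticosterone, and Serpina6, the corticosteroid-binding globulin, had 0 counts in every library, and the mineralocorticoid receptor Nr3c2 reached at most 1.07 CPM in CTR and 0.535 CPM in CAC.

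The cytoplasmic receptor is matured by the HSP90 machinery, represented by 11 genes that were all tested. In CAC, 9 had a log2 fold change above 0 and 2 below it, with a median of 0.12; 0 passed the adjusted threshold with edgeR and with DESeq2, and 4 passed an unadjusted p of 0.05, all higher in CAC, against 7.01% of all tested genes in that direction. Stip1, the co-chaperone that joins HSP70 to HSP90, had 45.2, 47.2, 48.5 and 58.7 CPM in CTR and 92.1, 85.3, 51.7 and 66.6 CPM in CAC. CAC replicate 3 lay within the CTR range and the other 3 CAC libraries above it, a difference of 0.54 on the log2 scale (standard error 0.16, edgeR adjusted p = 0.11). Stip1 passed the threshold in 2 of the 18 alternatives, without CAC replicate 3 (0.69, adjusted p = 0.0342) and without the low-count filter (0.51, adjusted p = 0.0101). The HSP90 isoforms had smaller differences, with a log2 fold change of 0.29 in Hsp90aa1 (adjusted p = 0.237) and 0.25 in Hsp90ab1 (adjusted p = 0.286).

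Of 12 coactivators and corepressors that the receptor recruits, all were tested, 7 had a log2 fold change above 0 and 5 below it, and the median was 0.02. The adjusted threshold was passed by 0 of them with edgeR and with DESeq2, and an unadjusted p of 0.05 by 0 with edgeR. Among them, the corepressor Nrip1 had a log2 fold change of 0.17 (95% interval -0.12 to 0.46) and the Mediator subunit Med1 one of -0.13 (95% interval -0.43 to 0.17).

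Upstream sequence of the targets was read from RefSeq promoters (GRCm38.p6, 250 bases before to 50 after a gene start), which covered 8 of the 10 genes with 16 promoters. Nr3c1 and Zbtb16 had none. Both strands were searched for the palindrome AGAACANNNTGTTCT, a strict form of the glucocorticoid response element, for its single arm AGAACA, which the palindrome contains, and for the E-box CACGTG that the clock proteins CLOCK and BMAL1 bind. The palindrome was in 1 of the 16 promoters and in 3 of all 32851 promoters (0.00913%). The single arm was in 4 of the 16, of which 3 belong to Sgk1, against 19% of all promoters, and the E-box was in 3 of the 16, against 7.15%. Most known binding sites of the receptor lie outside such a window and vary from these letters, so a promoter without a match says nothing about binding. The 4 promoters below are shown because they belong to the targets with the smallest p (Fkbp5 and Tsc22d3), to the promoter with the palindrome (Sgk1) and to the gene with the largest fitted fold change among the tested genes of a wider glucocorticoid-induced list (Per1), and capitals mark the motifs.
Fkbp5: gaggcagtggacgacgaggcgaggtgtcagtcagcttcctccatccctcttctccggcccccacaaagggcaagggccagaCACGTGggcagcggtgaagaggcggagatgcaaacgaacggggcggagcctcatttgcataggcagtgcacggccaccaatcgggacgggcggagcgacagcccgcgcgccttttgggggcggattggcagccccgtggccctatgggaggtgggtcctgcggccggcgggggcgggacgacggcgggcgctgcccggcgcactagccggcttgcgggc
Tsc22d3: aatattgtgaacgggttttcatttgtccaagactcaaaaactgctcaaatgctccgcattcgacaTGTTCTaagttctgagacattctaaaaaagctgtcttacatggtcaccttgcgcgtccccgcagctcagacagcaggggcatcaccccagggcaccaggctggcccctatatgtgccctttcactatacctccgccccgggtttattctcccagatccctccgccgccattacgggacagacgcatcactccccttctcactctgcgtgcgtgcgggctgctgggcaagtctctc
Sgk1: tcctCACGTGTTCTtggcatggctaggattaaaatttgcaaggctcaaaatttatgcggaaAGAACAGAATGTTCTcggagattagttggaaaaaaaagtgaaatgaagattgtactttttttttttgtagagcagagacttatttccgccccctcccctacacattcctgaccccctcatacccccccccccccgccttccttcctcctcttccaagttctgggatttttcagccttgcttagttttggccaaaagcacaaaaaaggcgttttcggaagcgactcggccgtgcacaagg
Per1: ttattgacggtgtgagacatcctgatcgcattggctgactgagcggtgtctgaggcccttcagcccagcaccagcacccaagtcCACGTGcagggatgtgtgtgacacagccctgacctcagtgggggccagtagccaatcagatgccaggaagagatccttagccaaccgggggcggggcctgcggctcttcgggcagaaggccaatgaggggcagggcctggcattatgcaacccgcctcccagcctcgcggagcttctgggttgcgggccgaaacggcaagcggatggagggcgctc
The Fkbp5 promoter (chr17:28486100-28486399, minus strand) holds an E-box that begins 169 bases before the gene start and no arm of the palindrome. The Tsc22d3 promoter (chrX:140600473-140600772, minus strand), 1 of 3 for this gene, holds a single arm 185 bases before the start. The Sgk1 promoter (chr10:21993640-21993939, plus strand), 1 of 6, holds the palindrome 189 bases before the start, and an E-box 246 bases before it that overlaps a further single arm at 242 bases. The Per1 promoter (chr11:69098699-69098998, plus strand), 1 of 2, holds an E-box 166 bases before the start. A match describes the letters only, not a bound site.

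Fkbp5 (ENSMUSG00000024222.18, chromosome 17, 28399094 to 28517527, minus strand) encodes the co-chaperone FKBP51, which lowers the receptor's affinity for the hormone and closes a negative feedback loop. The libraries held 9, 8, 2 and 12 counts in CTR replicates 1 to 4 and 9, 7, 15 and 21 counts in CAC replicates 1 to 4. Scaled, these were 3.21, 2.11, 0.822 and 2.62 CPM in CTR and 4.82, 3.69, 4.35 and 7.25 CPM in CAC. CTR replicate 3 was the lowest and CAC replicate 4 the highest, and the groups did not overlap. The mean was 2.19 ± 1.02 CPM (SD, n = 4) in CTR and 5.03 ± 1.55 CPM in CAC, with a fitted fold of 2.24 and a 95% interval of 1.32 to 3.80. The log2 fold change was 1.16 (standard error 0.37), the largest in absolute value of the 9 tested genes, with an unadjusted p of 0.00459 and an adjusted p of 0.148 in edgeR's test, rank 306 of 9876. No CTR library reached the level that the low-count filter asks for, so the CAC libraries alone let Fkbp5 be tested. Its p, rank and place among the 9 follow in part from that and are given as a description. An exact two-sided permutation test over the 70 assignments of the libraries gave p = 0.0286, the smallest that 4 against 4 allows. This p restates that the groups did not overlap, and with CTR below the filter's level the gene could be tested only if they did not. Leaving out each library in turn kept the log2 fold change between 0.92 and 1.33, lowest without CAC replicate 4 (adjusted p = 0.399). The coefficient of variation, 46.4% in CTR and 30.9% in CAC, was close to that from counting alone, 45.3% and 30.3%. AC154912.3, a transcript model of unassigned type, overlaps Fkbp5 on the same strand with 35.5 counts over all libraries.

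Tsc22d3 (ENSMUSG00000031431.14, chromosome X, 140539528 to 140600659, minus strand) encodes GILZ, a leucine zipper protein that mediates anti-inflammatory actions of glucocorticoids. It had 11.8, 16.9, 13.6 and 15.3 CPM in CTR and 16.6, 18.4, 22.9 and 21.1 CPM in CAC. Only CAC replicate 1 fell below the highest CTR library, replicate 2. The means were 14.4 ± 2.21 and 19.8 ± 2.80 CPM (SD, n = 4), which is 0.46 higher in CAC on the log2 scale (standard error 0.17, 95% interval 0.10 to 0.83, fold interval 1.07 to 1.77), with an unadjusted p of 0.0145 and an adjusted p of 0.245 in edgeR's test. The value fell to 0.21 when each library was thinned at random to the smallest total.

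Zbtb16 (ENSMUSG00000066687.6, chromosome 9, 48654297 to 48836222, minus strand) encodes PLZF, a zinc finger transcription factor that glucocorticoids induce strongly in many tissues. It had 2.14, 3.43, 3.29 and 6.55 CPM in CTR and 5.89, 7.37, 3.77 and 10.4 CPM in CAC, from 6 to 30 counts per library. CTR replicate 4 lay above CAC replicates 1 and 3, and CAC replicate 4 was the highest of all. Zbtb16 had a log2 fold change of 0.73 (standard error 0.35, 95% interval -0.01 to 1.46, edgeR adjusted p = 0.396), 1.18 without CTR replicate 4 and 0.41 without CAC replicate 4.

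Klf9 (ENSMUSG00000033863.3, chromosome 19, 23141226 to 23168134, plus strand) encodes a Krüppel-like repressor that is both a receptor target and a clock-controlled gene. It had 165 to 194 CPM in CTR, with a median of 182 CPM, and 156, 159, 190.1 and 236 CPM in CAC replicates 1 to 4. CAC held both the lowest and the highest library, and the coefficient of variation was 6.91% in CTR and 20.0% in CAC, where counting alone gives 4.18% and 4.93%. The log2 fold change was 0.04 (standard error 0.12, 95% interval -0.21 to 0.29, edgeR adjusted p = 0.934), and it took the opposite sign, -0.09, without CAC replicate 4 and -0.0018 without CTR replicate 1. With 292 to 890 counts per library this was the most deeply counted of the 10 genes, and its interval is bounded by a fold of 0.865 and 1.22.

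The other 4 targets act in signalling. Sgk1 (ENSMUSG00000019970.16, chromosome 10, 21882184 to 21999903, plus strand) encodes a kinase that acts on ion transport and insulin signalling, and its promoter holds the palindrome shown above. It had 6.41, 7.38, 7.40 and 6.77 CPM in CTR and 11.8, 3.69, 7.25 and 8.98 CPM in CAC. The CTR libraries lay within 1 CPM of each other, whereas CAC held both extremes, replicate 2 and replicate 1. Sgk1 had a log2 fold change of 0.18 (95% interval -0.38 to 0.74, edgeR adjusted p = 0.844) and -0.0053 without CAC replicate 1.

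Dusp1 (ENSMUSG00000024190.8, chromosome 17, 26505590 to 26562128, minus strand) encodes a phosphatase that inactivates MAP kinases, and it is an immediate early gene as well as a receptor target. It had 28.9, 12.9, 18.1 and 6.55 CPM in CTR and 10.7, 8.43, 8.71 and 10.7 CPM in CAC. Of the CTR libraries, 3 lay above every CAC library and replicate 4 below every CAC library. The means were 16.6 ± 9.43 and 9.63 ± 1.24 CPM (SD, n = 4), and the difference on the log2 scale was -0.72 (standard error 0.42, 95% interval -1.68 to 0.23, edgeR adjusted p = 0.529). The value was -0.31 without CTR replicate 1 and -1.02 (adjusted p = 0.0522) without CTR replicate 4. The coefficient of variation in CTR was 56.8%, against 14.9% from counting alone, and in CAC it was 12.9%, against 21.1%. On the opposite strand Ergic1, with 1590 counts over all libraries, overlaps the annotated gene. Without the strand setting, the gene of origin of reads within the overlap cannot be told, and how many such reads there are was not measured.

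Immediate early genes, which respond to handling and stress of tissue within minutes, were listed beside Dusp1. Of 12 such genes 7 were tested, 5 had a log2 fold change above 0 and 2 below it, and 0 passed the adjusted threshold with edgeR and with DESeq2. At an unadjusted p of 0.05 in edgeR's test 1 of the 7 passed, against 12.9% of all tested genes. It was Ier5 (log2 fold change 0.53, adjusted p = 0.231). Zfp36, which encodes a protein that destabilises inflammatory mRNAs, had 2.14 to 5.34 CPM in CTR and 4.14 to 5.35 CPM in CAC (log2 fold change 0.42, 95% interval -0.26 to 1.10, adjusted p = 0.638). Zfp36 had enough counts to be tested mainly through the CAC libraries, so its direction follows in part from that and is given as a description. Egr1, a zinc finger transcription factor, had 57.4, 14.8, 12.3 and 1.75 CPM in CTR and 4.82, 3.16, 0.871 and 3.45 CPM in CAC (log2 fold change -2.85, 95% interval -5.91 to 0.21, adjusted p = 0.418), and the value was -1.68 without CTR replicate 1. CTR replicate 1 was the highest and CTR replicate 4 the lowest CTR library in both Egr1 and Dusp1. The summed level of the list was 148, 127, 113 and 77.5 CPM in CTR and 127, 97.9, 94.9 and 114 CPM in CAC. The part of this spread in the Dusp1 values was not tested.

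Ddit4 (ENSMUSG00000020108.5, chromosome 10, 59949669 to 59951834, minus strand) encodes REDD1, an inhibitor of mTORC1. It had 5.70, 12.1, 21.8 and 9.39 CPM in CTR and 20.9, 10.0, 13.1 and 11.7 CPM in CAC. CTR held both the lowest library, replicate 1, and the highest, replicate 3. The log2 fold change was 0.20 (standard error 0.36, 95% interval -0.58 to 0.99, edgeR adjusted p = 0.870), -0.0071 without CTR replicate 1, -0.0065 without CAC replicate 1 and 0.56 without CTR replicate 3. Counts in 4 libraries are fractions, which shows that some of its reads were shared with other places in the genome or other genes. The same holds for Hsd11b1, with fractions in 3 libraries, and for Nr3c1, with fractions in 2.

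Errfi1 (ENSMUSG00000028967.11, chromosome 4, 150853919 to 150868892, plus strand) encodes MIG6, an inhibitor of the EGF receptor. It had 4, 8, 2 and 5 counts in CTR and 6, 6, 3 and 12 counts in CAC, which is 1.43, 2.11, 0.822 and 1.09 CPM against 3.21, 3.16, 0.871 and 4.14 CPM. CAC replicate 3 lay among the CTR libraries and the other 3 CAC libraries above them (exact two-sided permutation p = 0.114, n = 4 per group). It was not tested in the fit across genes.

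**Figure D3:**
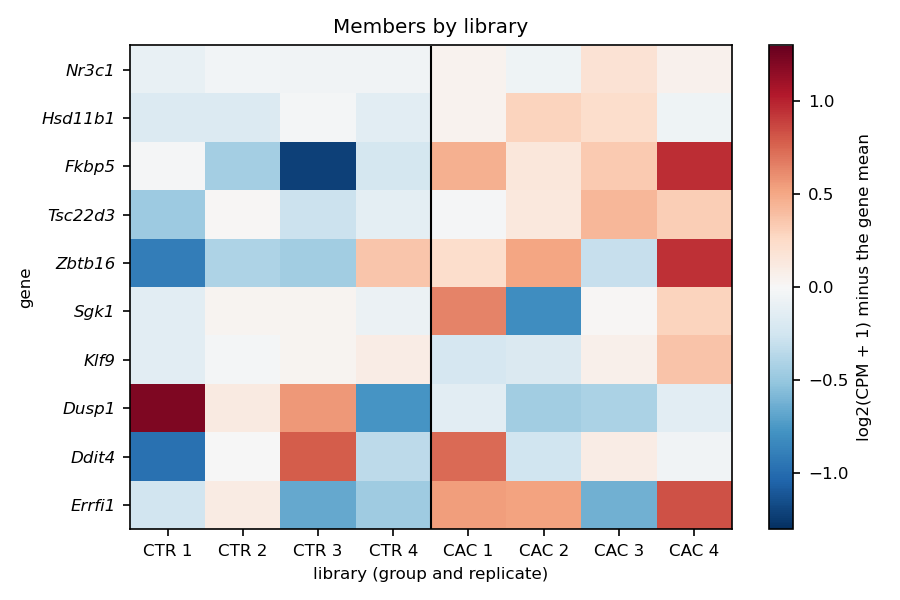
Log2(CPM + 1) of each of the 10 genes (rows) minus its mean over the 8 libraries (columns, CTR left and CAC right of the line); red is above and blue below the gene's mean. The mean over the 8 targets is highest in CAC replicates 4 and 1, at 0.44 and 0.28, while Dusp1 is highest in CTR replicate 1.

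The number of targets that were high differed between libraries in both groups. Of the 8 targets, 1, 4, 4 and 2 lay above their own mean over all libraries in CTR replicates 1 to 4, and 5, 4, 5 and 6 in CAC replicates 1 to 4. The mean over the 8 targets of the centred log2(CPM + 1) was -0.21, -0.08, -0.15 and -0.19 in CTR and 0.28, -0.05, -0.05 and 0.44 in CAC. CAC replicates 1 and 4 stood above the rest, and CAC replicates 2 and 3 lay slightly above the highest CTR library. The place of CAC replicates 2 and 3 depends on Fkbp5, which had enough counts to be tested through the CAC libraries alone. Its centred values were -0.45 and -1.22 in CTR replicates 2 and 3 and 0.15 and 0.34 in CAC replicates 2 and 3. The order of these libraries is therefore given as a description. Among the CAC libraries, replicate 4 was the highest for Fkbp5, Zbtb16, Klf9 and Errfi1, and replicate 1 for Sgk1 and Ddit4.

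A wider list of 27 genes that glucocorticoids are known to induce was read beside the 10. Of these, 22 were tested, 17 had a log2 fold change above 0 and 5 below it, and the median was 0.36. Per1 and Mt1 rose and Cdkn1c fell with an adjusted p under 0.05 in edgeR's test, 2 of 22 against 0.739% of all tested genes in the higher direction and 1 of 22 against 0.192% in the lower direction. At an unadjusted p of 0.05, 7 were higher and 1 was lower in CAC, against 7.01% and 5.93% of all tested genes. With DESeq2, 4 passed the adjusted threshold, Mt2 being the fourth. Lcn2, an iron-trapping protein of inflamed tissue named after its values were seen, was not tested in the filtered table and passed the adjusted threshold without the low-count filter, with 0.356, 0, 0 and 0 CPM in CTR and 5.35, 2.11, 3.77 and 1.73 CPM in CAC.

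Per1, a repressor of the circadian clock with a known receptor binding site, had 4.63, 6.86, 4.11 and 6.33 CPM in CTR and 17.7, 15.8, 16.2 and 16.2 CPM in CAC. Every CAC library was above 15 CPM and every CTR library below 7 CPM. Its log2 fold change was 1.53 (standard error 0.21, a fitted fold of 2.90 with a 95% interval of 2.13 to 3.94, edgeR adjusted p = 0.000301). Mt1, a metallothionein that binds zinc and is induced by metals and glucocorticoids, had 758, 738, 802 and 939 CPM in CTR and 1139, 1161, 1160.1 and 1185 CPM in CAC (log2 fold change 0.52, standard error 0.09, adjusted p = 0.00607). The groups did not overlap for Mt1, and the CAC libraries were the closer together.

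Cdkn1c, the imprinted cyclin-dependent kinase inhibitor p57, had 36.3, 29.3, 40.7 and 40.6 CPM in CTR and 13.9, 10.5, 18.0 and 16.9 CPM in CAC. All CAC libraries lay below all CTR libraries, opposite to the direction in which the list is known to respond (log2 fold change -1.26, standard error 0.17, adjusted p = 0.00024). Per1, Mt1 and Cdkn1c passed the threshold in all 18 alternative analyses. Named after their values were seen, Mt2 (log2 fold change 0.72, adjusted p = 0.101), Cdkn1a (0.54, adjusted p = 0.083) and Foxo1 (0.43, adjusted p = 0.112) did not pass it. Mt2 passed in 5 of the 18 alternatives, with adjusted p values of 3.04e-07 without the low-count filter, 0.00106 without CTR replicate 4 (log2 fold change 0.92), 0.00174 with the replicate block, 0.00675 with DESeq2 and 0.0445 with limma-trend. Cdkn1a passed without the low-count filter (adjusted p = 0.0108).

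Per1 also belongs to the circadian clock, for which 14 genes were listed and 11 tested. In this list 8 had a log2 fold change above 0 and 3 below it, with a median of 0.15, and Per1 alone passed the adjusted threshold. Nr1d2, the nuclear receptor REV-ERBβ, had 28.1, 48.0, 44.4 and 46.7 CPM in CTR and 54.6, 64.2, 60.6 and 75.3 CPM in CAC, with no overlap (log2 fold change 0.60, edgeR adjusted p = 0.057). It passed the threshold in 4 of the 18 alternatives, with adjusted p values of 0.00272 without the low-count filter, 0.0181 with the replicate block, 0.0368 after thinning to the smallest library and 0.0418 without CAC replicate 1. Per2 had 3.56, 3.16, 9.04 and 3.93 CPM in CTR and 7.49, 10.0, 6.96 and 7.59 CPM in CAC (0.76, adjusted p = 0.285), where CTR replicate 3 alone lay within the CAC range.

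Genes that glucocorticoids are known to repress were mostly too low to be tested. Of 12 inflammatory genes, only the adhesion molecule Vcam1 was tested, with 2.84 to 3.43 CPM in CTR and 4.28 to 5.87 CPM in CAC (log2 fold change 0.70, edgeR adjusted p = 0.315). Vcam1 had enough counts to be tested mainly through the CAC libraries, so its direction follows in part from that and is given as a description. Il6 and Cxcl1 had 0 counts in every library. Il1b, named after its values were seen, had at most 0.791 CPM in CTR and 1.04 to 4.74 CPM in CAC, up to 9 counts.

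**Figure D4:**
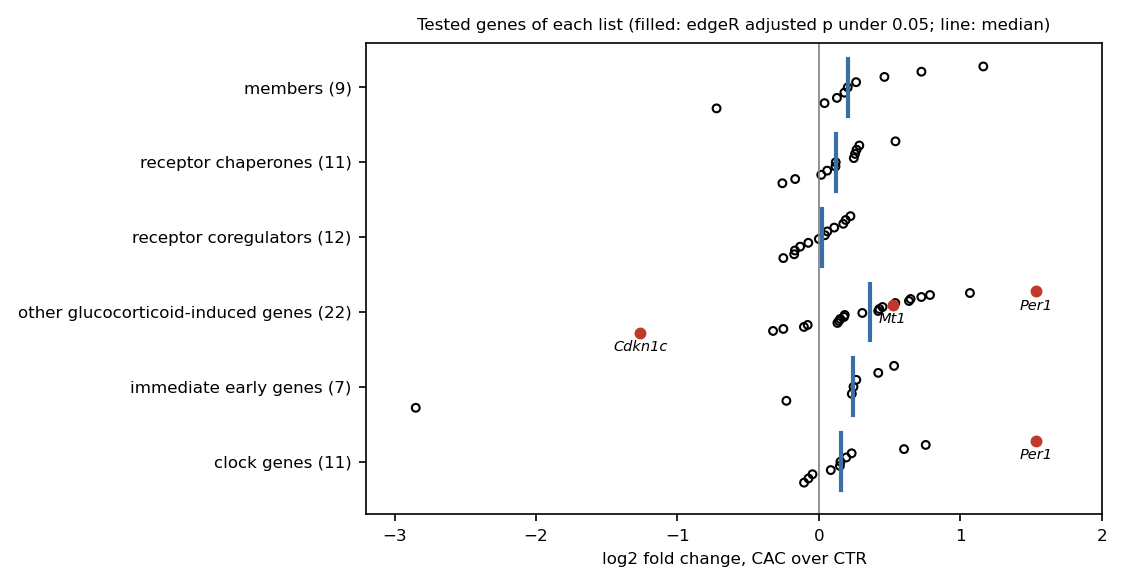
Log2 fold change of CAC over CTR for the tested genes of each list (number tested in parentheses; vertical position within a list is for display only); filled points have an edgeR adjusted p under 0.05 and blue lines are medians. No filled point lies among the 9 tested genes described here, and Per1, shown in both lists that hold it, Mt1 and Cdkn1c are filled.

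**Figure D5:**
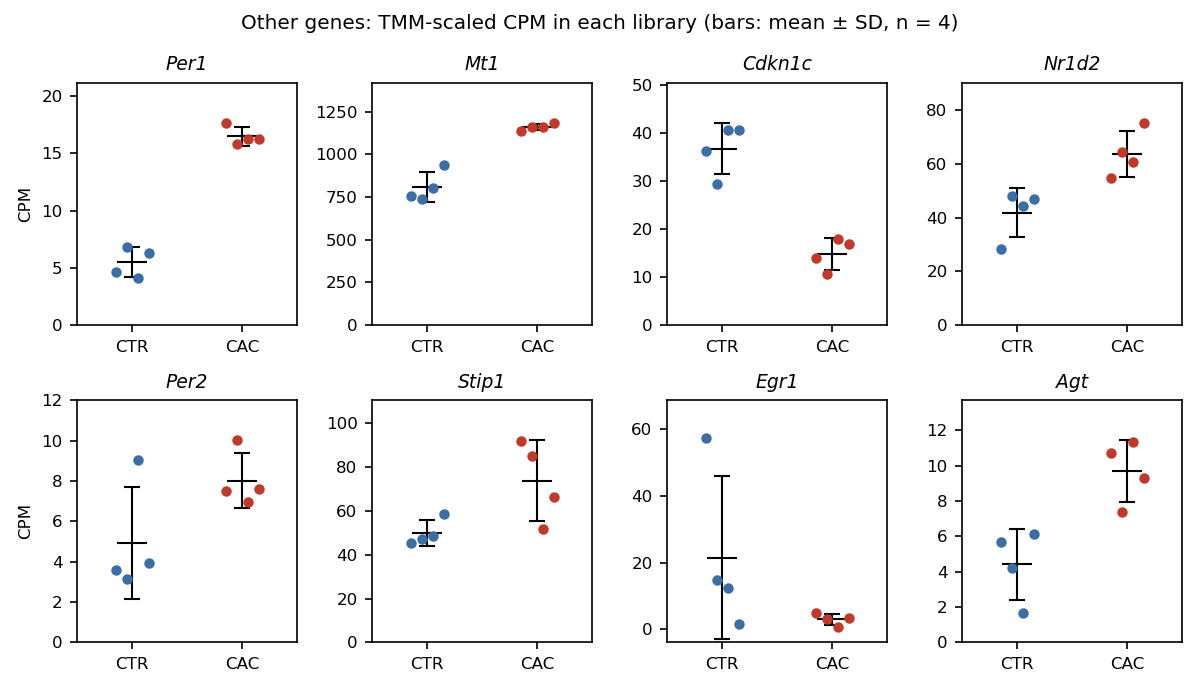
Expression in CPM (linear axes) of 8 genes outside the 10 in each CTR (blue) and CAC (red) library; bars are mean ± SD, n = 4. The groups separate for Per1, Mt1, Cdkn1c, Nr1d2 and for Agt, which was picked for its likeness to Fkbp5, and overlap for Per2, Stip1 and Egr1, where CTR replicate 1 stands at 57.4 CPM.

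The 5 genes whose profile over the 8 libraries was most like that of Fkbp5, by the root mean square difference of centred log2 CPM among 8588 tested genes with a mean of at least 5 CPM, were Agt (0.268), Zfp62 (0.284), Ung (0.289), Ppp1r13b (0.305) and Narf (0.324). Agt, the angiotensin precursor and itself a gene that glucocorticoids induce in liver, had 5.70, 4.22, 1.64 and 6.11 CPM in CTR and 10.7, 7.37, 11.3 and 9.32 CPM in CAC. CTR replicate 3 was the lowest for both Agt and Fkbp5. These genes were picked for their likeness to Fkbp5 over the same libraries, so how their groups lie follows in part from that choice and is given as a description with no test.

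Markers of cell types were measured in the same libraries. The brown adipocyte list (9 of 9 genes tested) summed to 17075 to 18841 CPM in CTR and 16416 to 18755 CPM in CAC and was detected in every library. Of its 9 genes, 5 had a log2 fold change above 0 and 4 below it. The adjusted threshold was passed by 0 with edgeR and with DESeq2 (1 with the replicate block and 1 without CTR replicate 4). In edgeR's test 2, Plin1 (-0.27) and Cox7a1 (-0.22), passed an unadjusted p of 0.05 as lower, against 5.93% of all tested genes. Their groups did not overlap, against 3.4% with CAC lower. Dio2 had the largest change of the list, 0.69 (edgeR adjusted p = 0.408), in the other direction. These 3 were named after their values were seen. Neutrophil markers (3 of 7 tested, all 3 passing the adjusted threshold as higher) summed to 6.06 to 6.86 CPM in CTR and 162 to 426 CPM in CAC. Nearly all of that sum came from S100a8, with a CAC mean of 173 ± 84.8 CPM (SD, n = 4), and S100a9, with 72.8 ± 27.8 CPM, calcium-binding alarmins that cells other than neutrophils can also make. Retnlg had a CAC mean of 10.6 ± 6.99 CPM, and the other 4, Csf3r, Ngp, Ltf and Camp, had at most 3.21 CPM in any library. S100a9 and Retnlg had enough counts to be tested through the CAC libraries alone, and S100a8 mainly through them. The passing of all 3 follows in part from the low-count filter. The called neutrophil markers became 4 without that filter and 0 with at least 10 counts in every library. They became 2 after thinning and without CTR replicate 1, 2 or 4. Macrophage markers (6 of 7 tested, 6 higher and 2 of them past the threshold) summed to 143 to 173 and 216 to 285 CPM. Skeletal muscle markers (7 of 7 tested, 7 higher and 1 past the threshold, 2 with DESeq2 and 3 with the replicate block or with limma-trend) summed to 741 to 1932 and 1639 to 3234 CPM, and erythroid markers (5 of 5 tested, 5 higher and 0 past the threshold with edgeR and with DESeq2, 2 with limma-trend and 4 at an unadjusted p of 0.05 with edgeR) to 6119 to 19079 and 14488 to 43880 CPM. Lymphocyte markers (0 of 6 tested) summed to 3.43 to 4.63 and 2.63 to 3.48 CPM, endothelial markers (6 of 6 tested, 2 higher and 4 lower) to 1189 to 1221 and 950.0 to 1430 CPM, and fibroblast markers (6 of 6 tested, 2 higher and 4 lower, 0 past the threshold and 1 without CAC replicate 3) to 459 to 602 and 397 to 586 CPM.

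Leukocytes and muscle also transcribe Fkbp5, Tsc22d3 and Zbtb16, and the part of these cells in the values was not tested.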

How the data were processed

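RNA of BAT from 4 CTR and 4 CAC mice was sequenced, and groups follow the labels. The authors checked reads with FastQC 0.11.9, aligned them to mm10 with HISAT2 2.2.1 and counted them with featureCounts, multi-mapping reads included. The deposited expected counts hold fractions (25.1% to 28.4% of nonzero values per library) and were rounded. The deposited normalized signal was made by the authors with DESeq2, and 100% of its values equal the truncated count over a size factor within 1e-06. No column was left out. Coordinates are from GENCODE M21 (GRCm38), matched by Ensembl ID without its version, and promoters from RefSeq (GRCm38.p6).

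Genes were kept by filterByExpr, normalized by TMM and tested as CAC against CTR with edgeR 4.0.16 (R 4.3.3; robust quasi-likelihood fit, no covariate, Benjamini-Hochberg over 9876 genes, threshold 0.05). The procedure was tested on simulated data. Counting error is the root mean square of 1 over the square root of each count. Exact permutation tests used all 70 assignments and were two-sided. Depth was 1822901 to 4827709 counts per library. P-values of the fits set the difference between groups against the spread between libraries of the same group, estimated with information shared over genes. They cover these 8 libraries only.

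Named genes are the 10 genes, from each list those with an adjusted p under 0.05 and the 3 with the smallest p, and the 5 nearest profiles to the gene with the smallest p; exceptions are stated, and Hsd11b2, Serpina6, Nr3c2, Il6, Cxcl1 and overlapping genes were named outside this rule. Some results that the rule names are not reported here. The genes and lists were chosen with earlier results of these data known. The alternatives were other size factors (DESeq2 1.42.0, library size, upper quartile), no filter or at least 10 counts in every library, the DESeq2 test, limma-trend (limma 3.58.1) on log2 of the deposited signal plus 1, the replicate block, truncated counts, thinning to the smallest library and leaving out each library. Plots were made with Python 3.11.15 and matplotlib 3.10.9.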

Additional observations from a re-analysis of the deposited data

Results flagged for a closer look

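Of 68 groups of 4 libraries screened for a library far from the other 3, 3 stood out, where chance alone flags about 1 in 20, or 3.4. Nr3c1 in CTR replicate 1 was 39.9 CPM, below the other CTR libraries at 41.5 to 41.7 CPM, a gap that is small in absolute terms. The HSP90 gene Hsp90aa1 in CAC replicate 1 was 314 CPM, above the other CAC libraries at 237 to 246 CPM. Per2 in CTR replicate 3 was 9.04 CPM, above the other CTR libraries at 3.16 to 3.93 CPM.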

How the results depend on the processing

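In all 18 alternatives 0 of the genes tested there passed the adjusted threshold (10 without a filter, 7 after thinning, 6 with at least 10 counts in every library and 9 in the others), and the lowest adjusted p was 0.0522, that of Dusp1 without CTR replicate 4. The 3 genes at an unadjusted p of 0.05 became 0 after thinning, which leaves fewer counts and does not test Fkbp5 or Zbtb16, and 1 to 4 when each library was left out (1 without CTR replicate 1, which was Fkbp5). Replicate numbers did not pair the libraries (correlations of -0.023 to 0.036 between same-numbered ones, of which only replicates 1 and 4 correlated best with their own number); with the replicate block 5 genes passed an unadjusted p of 0.05 (13.1% of all tested genes did), 0 the adjusted threshold, and 140 genes in all passed it instead of 92. The genes whose groups do not overlap numbered 1 to 3 when a library was left out (3 without CTR replicate 4), against 9.51% to 12.3% of all tested genes (11.7% without CTR replicate 4). The called chaperones became 1, Stip1, without a low-count filter, and 0 to 1 with a library left out; the called glucocorticoid-induced genes became 6 without the filter. Without the filter 351 genes passed in all, and 42 (without CTR replicate 1) to 135 (without CTR replicate 3) when a library was left out; thinning gave 60. Signs turned for values near 0: Sgk1 ranged from -0.0053 to 0.37, Klf9 from -0.092 to 0.12 and Ddit4 from -0.0071 to 0.56 with a library left out, and thinning gave -0.0058 for Klf9 and 0.019 for Med1; the cause was not tested. Fkbp5, Zbtb16 and Sgk1 could not be tested with at least 10 counts in every library. With a library left out, Per2 ranged from 0.59 to 1.13, Zfp36 from 0.28 to 0.65, Nrip1 from 0.11 to 0.24, Hsp90aa1 from 0.19 to 0.33 and Med1 from -0.21 to -0.04. Counts per library were low for Fkbp5 (2 to 21), Errfi1 (2 to 12), Zbtb16 (6 to 30) and Sgk1 (7 to 31), which limits their precision. The coefficient of variation of Zbtb16 also exceeded its counting error in CTR (49.1% against 31.7%) and in CAC (40.4% against 26.1%). That of Sgk1 did so in CAC (42.7% against 25.8%) but not in CTR (6.92% against 21.2%).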
